A study of Homo sapiens with 18 samples.

Results

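The 34 genes described here encode the Polycomb repressive complexes and their close partners in HEK293T cells, an established human embryonic kidney cell line. They were chosen by name from the complexes' known subunits, and 34 of 34 were found by symbol among the 14177 genes of the RNA table. Polycomb repressive complex 2 (PRC2) methylates histone H3 at lysine 27, and EZH2 or EZH1 is its catalytic subunit, held active by SUZ12 and EED. Polycomb repressive complex 1 (PRC1) adds ubiquitin to histone H2A through RING1 or RNF2 paired with a PCGF protein. Canonical PRC1 reads the PRC2 mark through a CBX subunit and compacts chromatin through PHC subunits, while variant PRC1 carries RYBP or YAF2. The deubiquitinase PR-DUB, made of BAP1 with ASXL1 or ASXL2, removes the PRC1 mark. Sorted by these roles, the genes were 4 of the PRC2 core, 5 PRC2 accessory genes, 8 RING and PCGF genes, 8 canonical PRC1 genes, 6 variant PRC1 genes and 3 PR-DUB genes.

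The study profiled cells with and without UBR7, a protein that its title describes as a chaperone for histone H3. The tested cells carry a CRISPR-Cas9 knockout of UBR7 (UBR7KO), and RNA was sequenced from 2 libraries of line UBR7KO1 and 1 library of line UBR7KO2. The comparison cells are parental HEK293T cells without this edit, with 3 RNA libraries. Open chromatin was mapped by ATAC-seq, which marks DNA that a transposase can reach, in 2 UBR7KO and 2 parental libraries. Sites of UBR7 were mapped by ChIP-seq for GFP in 1 library of HEK293T cells in which endogenous UBR7 was tagged with GFP, and 1 input library was sequenced beside it. The labels do not say whether a knockout line is 1 clone or whether replicates are separate cultures, so p-values here measure the spread between libraries, which may be technical. Date codes pair UBR7KO1 replicate 1 with parental replicate 1 (the first dated pair) and UBR7KO1 replicate 2 with parental replicate 2 (the second dated pair). The library labelled UBR7KO2 and parental replicate 3 carry no date and form an undated pair through a shared code prefix.

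RNA levels are in CPM, a gene's share of the reads of its library on a fixed scale, and the libraries held between 22153291 and 29811908 reads. The targeted gene was read first. UBR7 (ENSG00000012963, chromosome 14) stood at 27.01 and 26.33 CPM in the UBR7KO1 libraries and 64.5 CPM in the library labelled UBR7KO2, against 55.0, 62.2 and 62.2 CPM in the parental libraries. The UBR7KO1 libraries lay below every parental library, and the library labelled UBR7KO2 lay above them all, so its UBR7 RNA was not reduced. UBR7 protein and the edited sequence were not read here, so whether UBR7 is lost in that library was not tested. Where 3 values are given for UBR7KO below, they are those of UBR7KO1 replicates 1 and 2 and of the library labelled UBR7KO2, in this order. Permuting the 6 values exactly, two-sided, gave p = 0.4, and 0.1 is the smallest p possible with 3 libraries against 3. All 10 genes listed as typical of HEK293T were present, with a summed level of 904 to 1260 CPM in UBR7KO and 803 to 1240 CPM in parental libraries. None of 5 keratinocyte markers, 2 of 7 blood markers (2.69 to 3.37 CPM in UBR7KO, 1.9 to 3.16 CPM in parental libraries) and 3 of 5 fibroblast markers were in the table. The fibroblast markers summed to 7.35 to 15.0 CPM in UBR7KO and 14.2 to 21.3 CPM in parental libraries, while COL1A2 and DCN were not in the table, and their part in the results below was not tested.

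No Polycomb gene passed the test between UBR7KO and parental RNA over the 6 libraries, while 2 PRC2 core genes, EZH2 and SUZ12, passed the test of a difference between the pairs, in opposite directions. That count of 2 in 34 is near the 5.03% of all tested genes that passed the same test. In the undated pair EZH2 was higher and SUZ12 lower in the library labelled UBR7KO2, while in both dated pairs EZH2 was lower and SUZ12 higher in UBR7KO1. In bulk RNA, fewer cells that express a gene and less RNA per cell cannot be told apart. The levels of all 34 genes lie between 1.92 CPM (CBX7, parental replicate 3) and 329 CPM (BCOR, parental replicate 1).

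**Figure D1:**
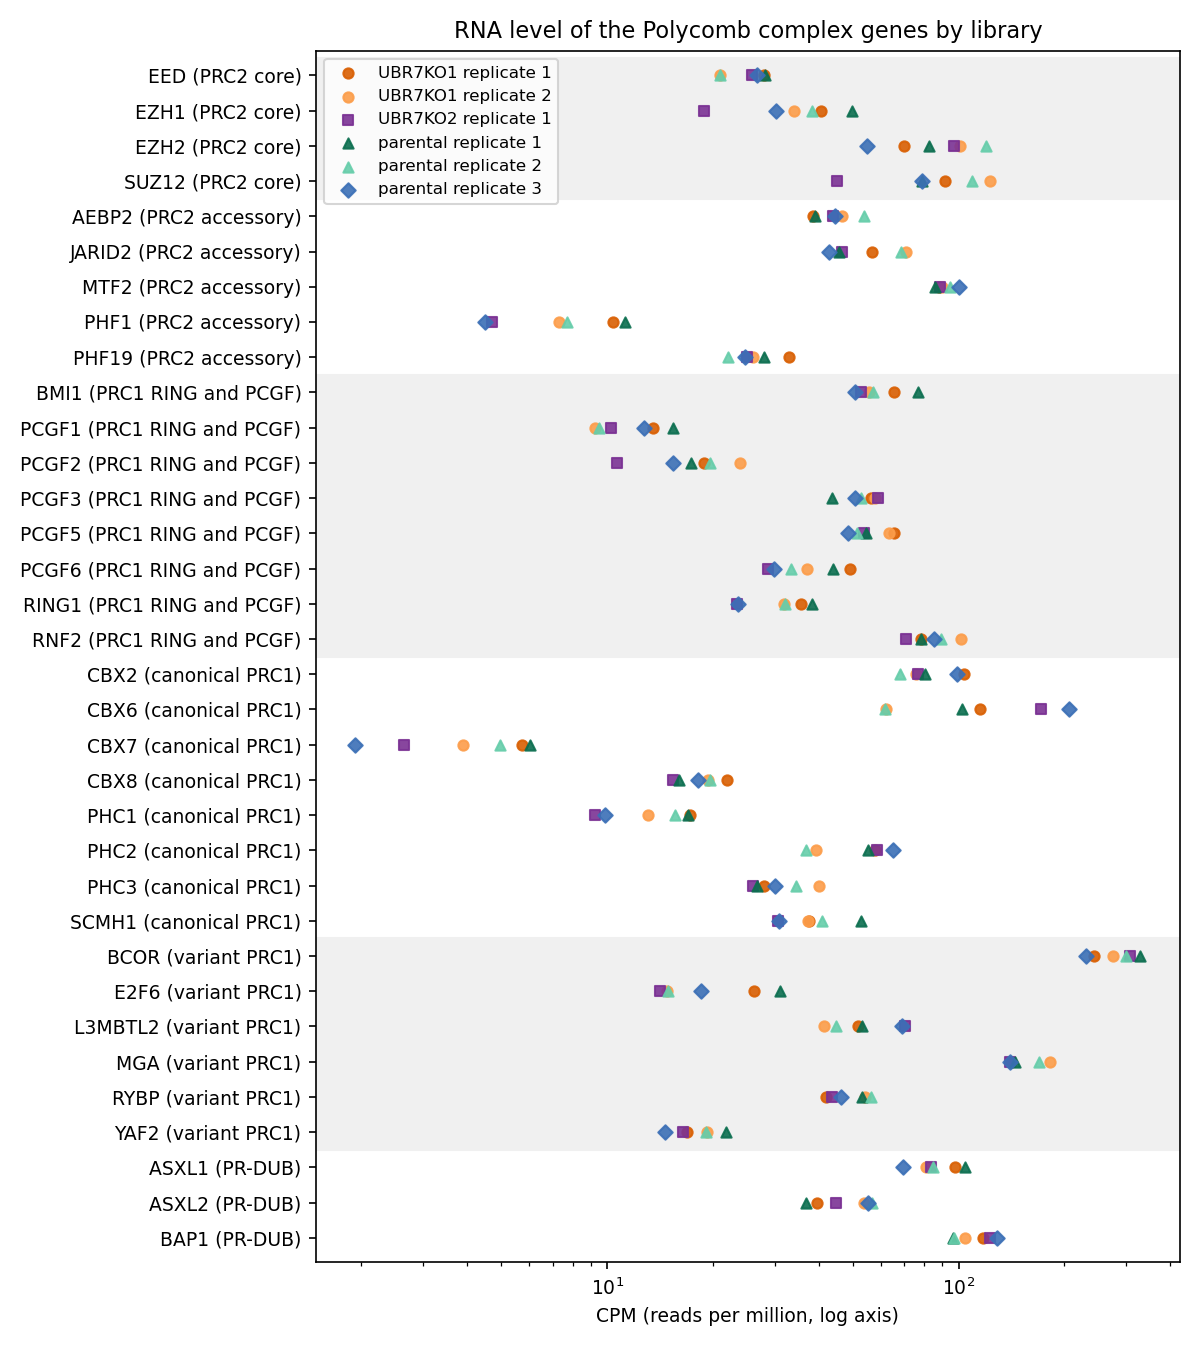
RNA level of each of the 34 Polycomb genes in CPM (log axis), 1 symbol per library, with genes grouped by complex. UBR7KO and parental symbols mix in every row but that of PCGF3, and the purple squares and blue diamonds of the undated pair often lie side by side, as for PHF1, RING1 and PHC1.

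The comparison of all 6 libraries asked whether cells labelled UBR7KO differ from parental cells in the RNA of these genes. It used limma on log2(CPM + 1), with calls at a Benjamini-Hochberg adjusted p under 0.05 over all tested genes. It called 0 of 13697 genes (0.0%), and 0 of the 34 Polycomb genes. Before adjustment, p in this fit without the pairs was under 0.05 for 23 genes that were higher and 47 that were lower. None of them was a Polycomb gene. The edgeR quasi-likelihood test on recovered reads also called 0 genes, and DESeq2 called 7, none of them a Polycomb gene. The fitted log2 changes of the 34 genes ran from −0.37 (EZH1) to 0.24 (PCGF3), with standard errors of 0.18 to 0.47. Without the library labelled UBR7KO2 the change of EZH1 was −0.05, and without parental replicate 1 it was −0.19, with 0.16 (0.155) for PCGF3. In this 6-library fit, which left out the pairs, the 95% intervals of the 34 changes reached from −1.10 to 1.03 on the log2 scale. Both ends belong to CBX6, and without the pairing changes of up to about that size were not detectable for the least precise genes. An alternative fit that treated each pair as a block gave CBX6 an interval of −0.30 to 0.24 (SE 0.12). Over the 34 genes, the intervals of that blocked fit reached from −0.67 (EZH1) to 0.62 (EZH2). Before adjustment, the blocked fit had p under 0.05 for 473 genes that were higher and 282 that were lower. EZH1 was the 1 Polycomb gene among them (log2 change −0.37, SE 0.13, 95% interval −0.67 to −0.06). EZH1 was not called (limma adjusted p = 0.802), and the blocked fit called 0 of 13697 genes. The median change was −0.03 over the 34 genes and 0.01 over all tested genes, with 13 Polycomb genes above 0 and 21 below. In the authors' deposited table the adjusted p was 1 for EZH2, SUZ12, EZH1 and EED alike.

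PCGF3, which pairs with RING1 or RNF2 in a variant PRC1, was the 1 Polycomb gene whose groups did not overlap, against 2.48% of all genes. It stood at 56.4, 57.9 and 58.8 CPM in the UBR7KO libraries, against 43.5, 52.7 and 50.8 CPM in the parental libraries. The highest of these is the library labelled UBR7KO2, whose UBR7 RNA was not below that of parental cells. The log2 change of PCGF3 was 0.24 (SE 0.19, limma adjusted p = 1). PCGF5, a close relative of PCGF3 with the same partners, stood at 65.3, 63.6 and 53.8 CPM in the UBR7KO libraries, against 54.5, 51.4 and 48.6 CPM in the parental libraries. Its groups overlapped by 1 library, and its log2 change was 0.23 (SE 0.19, limma adjusted p = 1). An antisense transcript overlaps PCGF3 on the other strand at a mean of 2.89 CPM, and whether the authors counted reads by strand is not given in the sources used here.

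Like most genes of the table, most Polycomb genes varied more among the parental libraries than between the partners of a pair. For 27 of 34 genes (79.4%, against 78.7% of all tested genes) the range over the 3 parental libraries, on the log2(CPM + 1) scale, exceeded the largest difference within any pair. CBX6, a chromodomain subunit of canonical PRC1, stood at 115, 62.2 and 171 CPM in the UBR7KO libraries, against 102, 61.7 and 206 CPM in the parental libraries. Each UBR7KO library of CBX6 lay close to its own partner, and both libraries of the undated pair lay above all dated ones. Both undated libraries lay outside the range of the 4 dated libraries for 16 Polycomb genes. They were higher for L3MBTL2, PHC2, BAP1 and CBX6, against 13.0% of all genes. They were lower for 12, among them EZH1, SUZ12, RING1, BMI1, PCGF2, PCGF6, PHC1 and MGA, against 30.2% of all genes. Changes are therefore given pair by pair below.

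The PRC2 core held the 3 largest changes of the undated pair. EZH2, the main methyltransferase of dividing cells (ENSG00000106462, chromosome 7), stood at 69.7 and 101 CPM in the UBR7KO1 libraries, against 82.3 and 119.8 CPM in their parental partners. It stood at 96.9 CPM in the library labelled UBR7KO2, against 55.1 CPM in parental replicate 3. Parental replicate 3 was the lowest of the 6 libraries for EZH2, while the library labelled UBR7KO2 lay inside the range of the dated libraries. The ratio of the undated pair was 1.76, with a 95% exact interval of 1.65 to 1.87 that covers counting error only.

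SUZ12, the scaffold on which PRC2 assembles (ENSG00000178691, chromosome 17), stood at 91.6 and 123 CPM in the UBR7KO1 libraries, against 78.7 and 109 CPM in their parental partners. It stood at 45.02 CPM in the library labelled UBR7KO2, against 78.48 CPM in parental replicate 3. Here the library labelled UBR7KO2 stood apart below the other 5, and parental replicate 3 was close to parental replicate 1. The ratio of the undated pair was 0.574 (95% exact counting interval 0.536 to 0.614).

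EZH1, the methyltransferase of resting cells (ENSG00000108799, chromosome 17), stood at 40.7 and 34.1 CPM in the UBR7KO1 libraries, against 49.6 and 38.3 CPM in their parental partners. It stood at 18.9 CPM in the library labelled UBR7KO2, against 30.3 CPM in parental replicate 3. Both UBR7KO1 libraries and the library labelled UBR7KO2, whose UBR7 RNA was not reduced, lay below their partners, and the undated libraries were the 2 lowest of the 6. EED, which binds the methylated H3 tail (ENSG00000074266, chromosome 11), stood at 27.96, 20.9 and 25.9 CPM in UBR7KO, against 28.2, 20.9 and 26.7 CPM in parental libraries. EED followed its partner within 0.05 on the log2 scale in every pair, while its dates differed by far more.

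**Figure D2:**
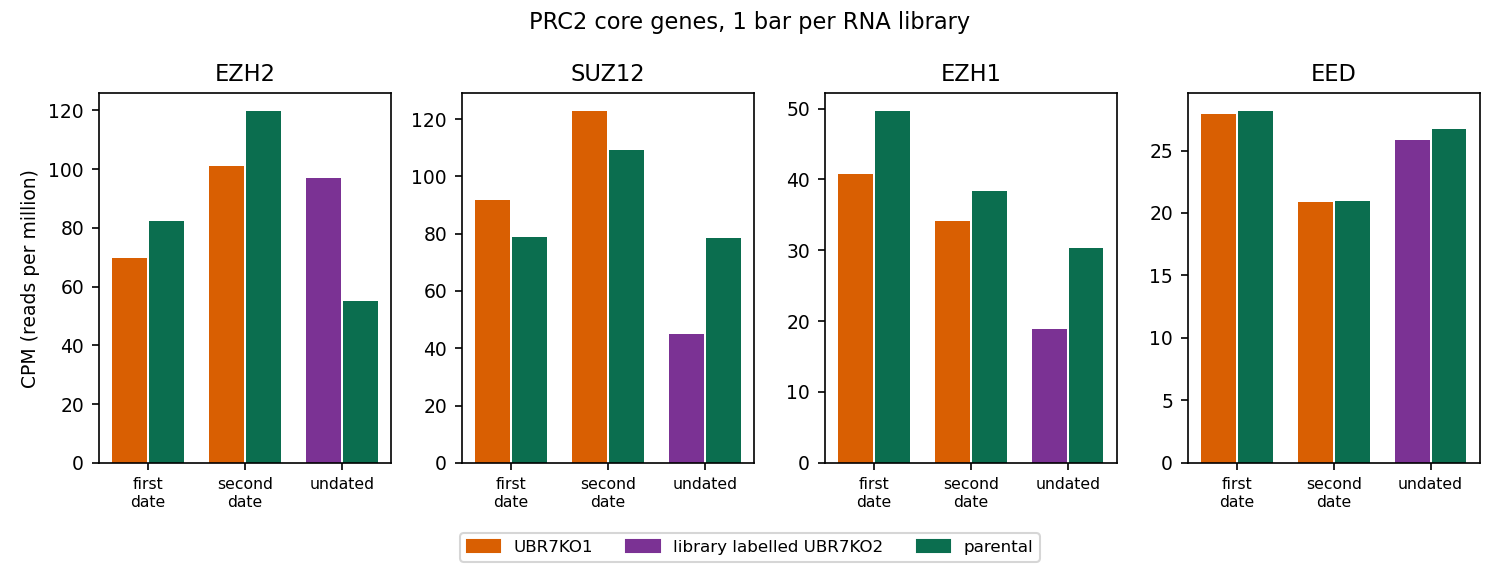
CPM of the PRC2 core genes, 1 bar per RNA library, in 3 pairs with the UBR7KO bar left of its parental partner. EZH2 reads 96.9 against 55.1 CPM and SUZ12 45.02 against 78.48 CPM in the undated pair, both opposite to the dated pairs, and the bars of EED are level within each pair.

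Whether the undated pair differed from the dated pairs was tested on all 6 libraries with a term for each pair and for each line, leaving 1 residual degree of freedom that limma moderates over genes. The spread in this test comes from the difference between the dated pairs alone, so its p does not measure the spread of the undated pair, which is assumed to vary like them. Because the second line has 1 library, line and preparation cannot be told apart. It called 689 of 13697 genes (5.03%), and 2 of the 34 Polycomb genes, while the edgeR quasi-likelihood test called 740 genes and the same 2 Polycomb genes. For EZH2 the change in the undated pair exceeded that in the dated pairs by 1.04 in log2 units (SE 0.20, limma adjusted p = 0.00212). For SUZ12 the difference was −0.98 (SE 0.20, limma adjusted p = 0.00388), and with DESeq2 its adjusted p was 0.0636. For EZH1 it was −0.43 (SE 0.23, limma adjusted p = 0.362) and for EED −0.04 (SE 0.25, limma adjusted p = 0.964), with a 95% interval for EED of −0.54 to 0.46. BCOR (0.71, SE 0.22, limma adjusted p = 0.0572), CBX2 (−0.61, SE 0.21, limma adjusted p = 0.0911) and PCGF2 (−0.68, SE 0.26, limma adjusted p = 0.16) had unadjusted p under 0.05 but were not called. With EZH2 and SUZ12 these are 5 of 34 genes, beside 862 higher and 1470 lower of all 13697 genes at that level, so the share is no larger than over all genes. BCOR was called under RLE scaling (adjusted p = 0.0262). As a ratio in which gene length cancels, EZH2 over EZH1 was 2.82 times as high in the library labelled UBR7KO2 as in parental replicate 3, and 1.03 and 0.947 times in the dated pairs. The EZH2 over SUZ12 ratio was 3.07 times as high in the undated pair, and 0.729 and 0.750 times in the dated pairs; these ratios were chosen after their values were seen.

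In the undated pair, the genes lying near SUZ12, EZH1 and EZH2 on their chromosomes were shifted to the same side as these genes. SUZ12, PCGF2, EZH1, CBX2 and CBX8 all lie on chromosome 17 beyond 20 Mb, where the 616 other tested genes had a median log2 change of −0.35 in the undated pair and 85.6% of them were lower. The medians of the same 616 genes were 0.08 and 0.11 in the dated pairs. Within 5 Mb of SUZ12, 95 genes had a median change of −0.49 in the undated pair, against −0.79 for SUZ12, and 10 of them were lower than SUZ12. Within 5 Mb of EZH1, 171 genes had a median of −0.34, against −0.65 for EZH1, and 18 were lower than EZH1. Around EZH2, 48 genes had a median of 0.37, against 0.80 for EZH2, and 3 were higher than EZH2. All 3 genes thus lay beyond the median of their surroundings, on the same side of 0 as those surroundings.

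Set against the neighbours' median in the test between pairs, the difference was 0.70 for EZH2, −0.41 for SUZ12 and 0.02 for EZH1. Of the genes near SUZ12, 33 of 95 were themselves called lower in that test, while 1 of 48 genes near EZH2 was called higher. PCGF2, CBX2 and CBX8 differed from their neighbours' median by −0.06, −0.11 and 0.03 in the undated pair. BCOR on chromosome X went the other way from its surroundings: it was higher by 0.42 in the library labelled UBR7KO2, while 19 neighbours had a median of −0.29. BCOR was the 1 gene at least 1.5-fold from its neighbours' median, and with genes within 10 Mb EZH2 was the 1 such gene, at 0.61. ASXL2, PCGF1 and E2F6 on chromosome 2 were lower by 0.29, 0.29 and 0.36, and their neighbours had medians of −0.37, −0.37 and −0.31. Over the 34 genes, Spearman's rho between a gene's change and its neighbours' median was 0.66 in the undated pair and 0.33 and 0.52 in the dated pairs; both come from the same libraries, and some windows share genes. What part of each gene's change its surroundings account for was not tested.

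**Figure D3:**
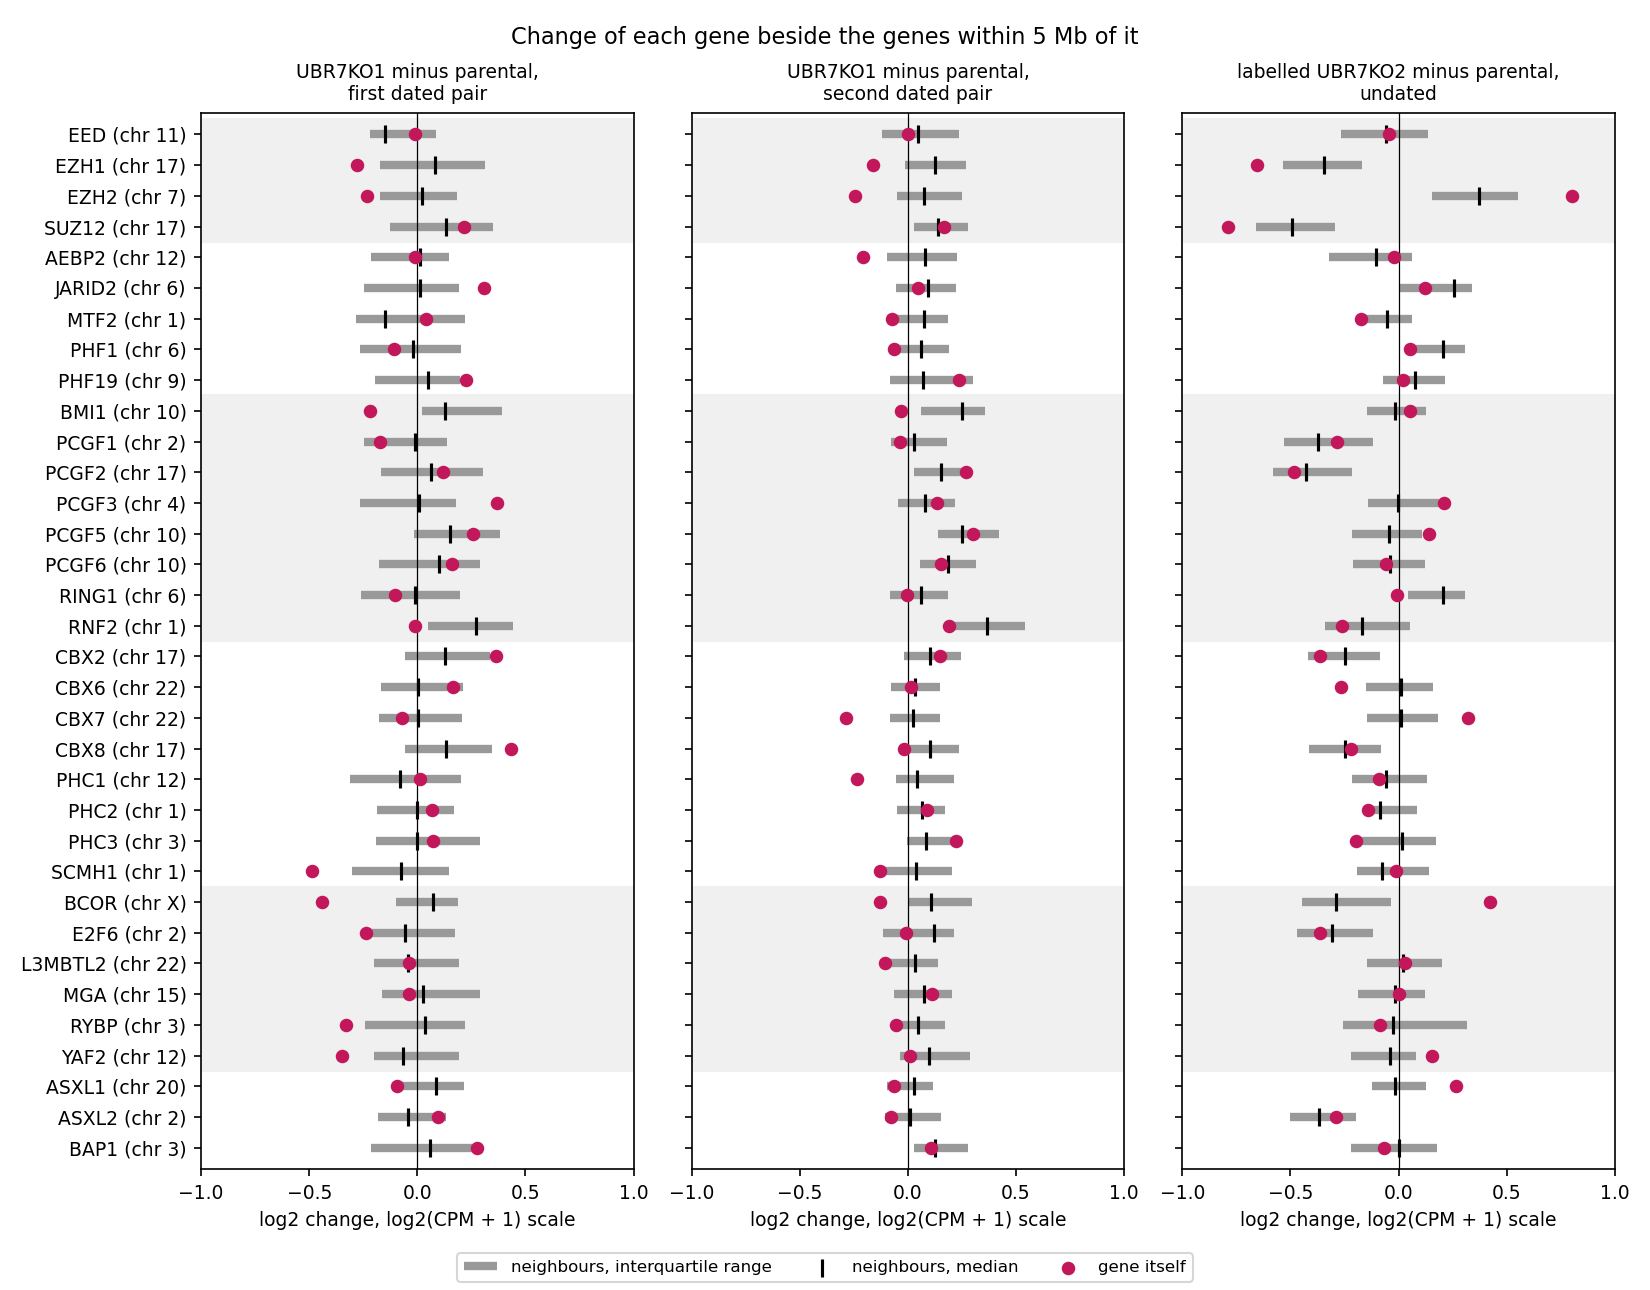
Log2 change of each Polycomb gene on the log2(CPM + 1) scale (dots) in the 3 pairs, UBR7KO minus parental, with the median (tick) and interquartile range (grey bar) of the tested genes within 5 Mb. In the undated pair the chromosome 17 genes and their neighbours lie left of 0, EZH2 and its neighbours lie right of 0, and BCOR lies right while its neighbours lie left.

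In the dated pairs alone, UBR7KO1 against parental cells, limma called 0 of 14059 genes (0.0%) and 0 Polycomb genes. Before adjustment, p was under 0.05 for 115 genes that were higher and 101 that were lower. The edgeR quasi-likelihood test called 0 genes and DESeq2 called 22, none a Polycomb gene. With a block for the date, that fit called 496 genes (3.53%, of which 2.16% higher and 1.37% lower), and again 0 Polycomb genes. UBR7 itself had a log2 change of −1.10 under this block (SE 0.13, limma adjusted p = 1.84e-05). Without the block the change of UBR7 was the same, with an SE of 0.20, and UBR7 was not called. The 0 calls without the block thus left out the targeted gene itself. As in the test between pairs, the spread of the blocked fit comes from the difference between the dated pairs alone, moderated over genes. The Polycomb changes ran from −0.31 (SCMH1) to 0.28 (PCGF5), and none reached 1.5-fold in either dated pair, where 8.35% and 4.48% of all genes did. Under the block 4 Polycomb genes had an unadjusted p under 0.05: PCGF5 (log2 change 0.28, SE 0.12, limma adjusted p = 0.248), SCMH1 (−0.31, SE 0.13, limma adjusted p = 0.253), BCOR (−0.28, SE 0.13, limma adjusted p = 0.258) and CBX2 (0.25, SE 0.12, limma adjusted p = 0.302). At that level the blocked fit had 1481 higher and 789 lower of 14059 genes, a share above that of the Polycomb genes. The edgeR quasi-likelihood test with the block had 3 Polycomb genes there, BCOR, EZH2 and SCMH1. In the undated pair 3 Polycomb genes, EZH2, SUZ12 and EZH1, passed 1.5-fold, against 8.53% of all genes (3.89% higher and 4.64% lower), and none passed 2-fold.

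The 5 PRC2 accessory genes help place the complex on chromatin, and none was called in any comparison. JARID2, which recruits PRC2, stood at 56.8, 70.7 and 46.7 CPM in UBR7KO, against 45.7, 68.4 and 42.8 CPM in parental libraries. In unscaled CPM it was higher in all 3 pairs by 0.05 to 0.31 on the log2 scale. The 0.05 belongs to the second dated pair, where the median over all genes was 0.07. With RLE scaling the change of JARID2 in that pair was −0.03. PHF19, a Polycomb-like protein that binds methylated H3, stood at 32.9, 26.1 and 25.0 CPM in UBR7KO, against 28.05, 22.03 and 24.6 CPM in parental libraries, and was also above its partner in every pair. The groups of both genes overlapped. MTF2, a Polycomb-like protein that binds unmethylated CpG DNA, stood at 88.2, 89.9 and 88.6 CPM in UBR7KO, against 85.7, 94.6 and 100.0 CPM in parental libraries. PHF1, the third Polycomb-like protein, stood at 10.4, 7.30 and 4.70 CPM in UBR7KO, against 11.3, 7.67 and 4.50 CPM in parental libraries. MTF2 was level over the UBR7KO libraries, and PHF1 followed its partner and was lowest in both undated libraries. AEBP2, a DNA-binding cofactor, stood at 38.6, 46.6 and 43.9 CPM in UBR7KO, against 39.0, 54.0 and 44.6 CPM in parental libraries, a little lower in every pair with overlapping groups. PHF1 overlaps CUTA on the opposite strand, which averages 65.1 CPM, so reads of the 2 genes may not have been told apart.

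The RING and PCGF genes form the catalytic pair of every PRC1. RNF2, the more studied ubiquitin ligase, stood at 78.0, 102 and 70.7 CPM in UBR7KO, against 78.4, 89.0 and 84.9 CPM in parental libraries. RING1, its relative, stood at 35.6, 31.9 and 23.4 CPM in UBR7KO, against 38.3, 32.0 and 23.5 CPM in parental libraries. The library labelled UBR7KO2 was the lowest of 6 for RNF2, and RING1 followed its partner closely in every pair. PCGF2 and BMI1 are the PCGF subunits of canonical PRC1. PCGF2 stood at 18.8, 23.9 and 10.7 CPM in UBR7KO, against 17.3, 19.7 and 15.4 CPM in parental libraries, above its partner in the dated pairs and lowest of all in the library labelled UBR7KO2. BMI1 stood at 65.5, 55.6 and 52.7 CPM in UBR7KO, against 76.5, 56.9 and 50.8 CPM in parental libraries, with overlapping groups. PCGF1, of the variant PRC1 that holds BCOR, stood at 13.5, 9.22 and 10.3 CPM in UBR7KO, against 15.4, 9.48 and 12.7 CPM in parental libraries, lower in every pair. PCGF6, of the variant PRC1 that holds MGA, stood at 49.1, 37.1 and 28.7 CPM in UBR7KO, against 43.8, 33.3 and 29.9 CPM in parental libraries. PCGF6 was above its partner on both dates and slightly below it in the undated pair. PCGF2 overlaps CISD3 on the opposite strand at a mean of 12.5 CPM.

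Of the 8 canonical PRC1 genes, 7 were lower in the undated pair, while 6 of 8 were higher in the first dated pair and 4 of 8 in the second dated pair. Of all tested genes, 47.2% were higher in the undated pair and 49.7% and 62.5% in the dated pairs. CBX2 and CBX8 lie on the part of chromosome 17 where 85.6% of other genes were lower in the undated pair. The class medians on the log2 scale were −0.17 in the undated pair and 0.07 and −0.003 in the dated pairs. CBX2, a chromodomain subunit that compacts nucleosomes, stood at 103.8 and 75.4 CPM in the UBR7KO1 libraries, against 80.5 and 68.1 CPM in their partners. It stood at 76.7 CPM in the library labelled UBR7KO2, against 98.8 CPM in parental replicate 3, the reverse order. CBX7, another reader of the PRC2 mark, was the lowest in reads, with 1.92 to 6.05 CPM over the 6 libraries. It was the 1 canonical gene above its partner in the undated pair, at 2.65 CPM in the library labelled UBR7KO2 and 1.92 CPM in parental replicate 3. CBX8 stood at 21.9, 19.3 and 15.4 CPM in UBR7KO, against 16.0, 19.6 and 18.1 CPM in parental libraries. SCMH1, a protein with MBT repeats that binds the PHC subunits, stood at 37.5, 37.2 and 30.6 CPM in UBR7KO, against 52.9, 40.8 and 30.9 CPM in parental libraries. SCMH1 was lower on both dates and level in the undated pair. The PHC genes, whose proteins polymerise, ranged from 9.22 to 17.2 CPM (PHC1), 36.9 to 64.9 CPM (PHC2) and 26.0 to 40.2 CPM (PHC3), and each differed from its partner by at most 0.24 on the log2 scale. PHC1 overlaps M6PR on the opposite strand, which averages 73.4 CPM.

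The 6 variant PRC1 genes were all lower in the first dated pair, with a median log2 change of −0.28, but 2 were higher and 4 lower in the second dated pair and 4 were higher and 2 lower in the undated pair. BCOR, the corepressor that anchors a variant PRC1 with PCGF1, stood at 243 and 275 CPM in the UBR7KO1 libraries, against 329 and 300.1 CPM in their partners. It stood at 309 CPM in the library labelled UBR7KO2, against 230.0 CPM in parental replicate 3, so the order turned in the undated pair. RYBP, which stimulates the ligase and binds ubiquitinated H2A, stood at 42.1, 54.1 and 43.6 CPM in UBR7KO, against 53.2, 56.2 and 46.3 CPM in parental libraries, lower in every pair. YAF2, its relative, stood at 16.9, 19.3 and 16.4 CPM in UBR7KO, against 21.8, 19.1 and 14.7 CPM in parental libraries, with no common direction. MGA, E2F6 and L3MBTL2 belong to the variant PRC1 with PCGF6, in which MGA and E2F6 bind DNA. MGA stood at 141, 182 and 140.1 CPM in UBR7KO, against 145, 169 and 140.0 CPM in parental libraries. E2F6 stood at 26.1, 14.8 and 14.2 CPM in UBR7KO, against 31.0, 14.9 and 18.5 CPM in parental libraries. L3MBTL2 stood at 51.7, 41.6 and 70.4 CPM in UBR7KO, against 53.0, 44.8 and 69.0 CPM in parental libraries. E2F6 was lower in the first dated and undated pairs and nearly level in the second dated pair. MGA and L3MBTL2 were close to their partners.

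The PR-DUB genes showed no common direction. BAP1, the deubiquitinase, stood at 117, 104.6 and 123 CPM in UBR7KO, against 96.5, 97.1 and 129 CPM in parental libraries. ASXL1, which activates BAP1, stood at 97.9, 80.9 and 83.6 CPM in UBR7KO, against 104.4, 84.5 and 69.3 CPM in parental libraries. ASXL2, the alternative partner, stood at 39.6, 53.8 and 44.9 CPM in UBR7KO, against 36.9, 56.9 and 55.2 CPM in parental libraries. BAP1 was above its partners on both dates and below in the undated pair, ASXL1 the reverse. Over all classes 4 of 34 genes were higher in every pair (11.8%, against 15.5% of all genes) and 8 were lower in every pair (23.5%, against 11.5% of all genes). Another 15 moved one way in both dated pairs and the other way in the undated pair (44.1%, against 34.1% of all genes). These counts describe signs in 3 pairs and carry no test. Some changes of the 8 genes lower in every pair were near 0. In the second dated pair EED had −0.002 and E2F6 −0.010, and RING1 had −0.005 in the undated pair. With RLE scaling RING1 turned to 0.015 in the undated pair, so the counts depend on scaling.

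Of 42 other genes of the Polycomb pathway, such as histone-binding subunits and partners of variant complexes, 40 were tested and 0 were called in the 6-library comparison, on the dates or between pairs. Their median log2 change over 6 libraries was 0.004. RBBP7 and RBBP4, the histone-binding subunits of PRC2, were the most expressed by CPM. RBBP7 stood at 287, 288 and 289 CPM in UBR7KO, against 349, 259 and 435 CPM in parental libraries (log2 change −0.24, SE 0.24, limma adjusted p = 1). RBBP7 was level over the UBR7KO libraries and spread widely over the parental ones. Of 23 Trithorax and SWI/SNF genes, which oppose Polycomb, 21 were tested, and 1 was called, in the test between pairs: SMARCD2, a SWI/SNF subunit on chromosome 17 (−0.70, SE 0.21, limma adjusted p = 0.0497). That count of 1 in 21 is near the 5.03% of all tested genes called in the same test. SMARCD2 stood at 118 and 105.3 CPM in the UBR7KO1 libraries and 97.0 CPM in the library labelled UBR7KO2, against 84.5, 92.8 and 126 CPM in parental libraries. Its neighbours had a median log2 change of −0.35 in the undated pair.

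Among 50 developmental regulators known as Polycomb targets in other cells, 44 were tested, and 0 were called in the 6-library comparison or on the dates. Between the pairs, 5 were called higher (1.71% of all genes were) and 2 lower (3.32% of all genes were). FOXA1, a forkhead factor of endoderm, stood at 25.4 CPM in the library labelled UBR7KO2 and 8.03 and 7.38 CPM in UBR7KO1, against 9.08, 11.5 and 8.54 CPM in parental libraries (difference between pairs 1.83, SE 0.31, limma adjusted p = 0.000385). ZIC2, a zinc finger factor of the forebrain, stood at 117 CPM in the library labelled UBR7KO2 and 53.0 and 48.1 CPM in UBR7KO1, against 66.8, 74.8 and 76.1 CPM in parental libraries (1.09, SE 0.21, limma adjusted p = 0.00212). For both, the library labelled UBR7KO2 stood above the other 5. FOXC1, a forkhead factor of mesenchyme, differed between pairs by 1.09 (SE 0.21, limma adjusted p = 0.00163), and stood at 280.5 CPM in the library labelled UBR7KO2, against 173 CPM in parental replicate 3. SIX2, a homeobox factor of kidney progenitors, stood at 7.04 CPM in the library labelled UBR7KO2 and 10.0 and 6.08 CPM in UBR7KO1, against 7.59, 5.37 and 24.1 CPM in parental libraries (−1.90, SE 0.32, limma adjusted p = 0.000356). For SIX2 it was parental replicate 3 that stood apart. In the dated pairs FOXC1 stood at 209.5 and 230.3 CPM in UBR7KO1, against 277.7 and 301.3 CPM in parental libraries. Parental replicate 3 was the lowest of the 6 for FOXC1, and the library labelled UBR7KO2 lay inside the range of the dated libraries. HAND1, a factor of heart and placenta, stood at 5.03 CPM in the library labelled UBR7KO2, the lowest of the 6, against 13.3 CPM in parental replicate 3 (−1.60, SE 0.30, limma adjusted p = 0.00161). In the undated pair, tested genes within 5 Mb of FOXA1, ZIC2 and FOXC1 had median log2 changes of −0.062, 0.365 and 0.158. Those near SIX2 and HAND1 had medians of −0.368 and −0.054. What part of each regulator's change its surroundings account for was not tested. Whether any of these regulators carries the Polycomb mark in these cells was not measured.

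The promoters of the PRC2 core are shown because EZH2 and SUZ12 were called between pairs and because UBR7 peaks lie within 1000 bp of the starts of EZH2 and EED. The EED peak is centred 582 bp downstream of the gene start, so it is not in the bases shown for EED. Each sequence is the 250 bases before the start in RefSeq (GRCh38.p14), 5′ to 3′ on the gene's strand, for EZH2 (the upstream of 2 starts, minus strand, chr7:148884292-148884541), SUZ12 (plus strand, chr17:31936757-31937006), EZH1 (minus strand, chr17:42745041-42745290) and EED (plus strand, chr11:86244503-86244752). Capitals mark matches on either strand to a CCAAT box (CCAAT) or a GC box (GGGCGG).
EZH2: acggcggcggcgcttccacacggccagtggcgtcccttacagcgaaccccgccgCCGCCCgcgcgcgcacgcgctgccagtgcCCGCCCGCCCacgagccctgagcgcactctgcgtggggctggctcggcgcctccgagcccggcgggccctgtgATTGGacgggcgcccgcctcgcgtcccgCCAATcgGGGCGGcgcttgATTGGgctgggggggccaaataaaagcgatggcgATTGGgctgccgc
SUZ12: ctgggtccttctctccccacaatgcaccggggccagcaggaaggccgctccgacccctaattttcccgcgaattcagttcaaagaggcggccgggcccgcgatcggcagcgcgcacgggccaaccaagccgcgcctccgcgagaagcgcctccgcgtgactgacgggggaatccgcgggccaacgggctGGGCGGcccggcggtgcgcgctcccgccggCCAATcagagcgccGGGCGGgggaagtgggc
EZH1: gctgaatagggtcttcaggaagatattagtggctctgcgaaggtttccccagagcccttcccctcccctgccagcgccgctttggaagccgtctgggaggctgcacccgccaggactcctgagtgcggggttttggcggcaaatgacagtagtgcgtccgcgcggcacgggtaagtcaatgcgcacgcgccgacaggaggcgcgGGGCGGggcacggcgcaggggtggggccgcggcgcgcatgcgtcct
EED: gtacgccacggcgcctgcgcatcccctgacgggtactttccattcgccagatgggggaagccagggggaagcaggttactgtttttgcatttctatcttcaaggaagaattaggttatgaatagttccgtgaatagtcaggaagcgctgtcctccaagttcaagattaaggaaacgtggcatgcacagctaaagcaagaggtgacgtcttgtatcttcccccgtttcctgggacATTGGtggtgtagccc
The EZH2 window held 4 CCAAT and 4 GC boxes, of which 2 overlap each other, and 38 CpG dinucleotides. The window of its second start, not shown, held 0 CCAAT and 1 GC box and 39 CpG. The SUZ12 window held 1 CCAAT and 2 GC boxes, EZH1 held 0 CCAAT and 1 GC box, and EED held 1 CCAAT and 0 GC boxes with 11 CpG. Of all 35116 promoter windows of this length, 32.0% held a CCAAT and 42.6% a GC box, and the median was 11 CpG. An E2F-type motif (TTTGGCGC or TTTCGCGC, in 0.968% of windows) and a TATA box (TATAAA, in 10.7%) were also searched and had no match in these 4 windows. Other forms of the E2F-type motif were not searched, so their absence from these windows is not shown. Windows were matched by symbol for 31 of the 34 genes, with 46 windows in all, of which 14 held a CCAAT and 32 a GC box; BAP1, CBX2 and CBX8 had none in the table.

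Open chromatin at the starts was read from the authors' ATAC peak lists, called in each library alone, as a listed peak within 1000 bp of the gene start (GRCh37 coordinates). The UBR7KO lists hold 15310 and 45920 peaks and the parental lists 10507 and 38529, so counts follow the length of the list. Of 34 starts, 27 and 29 had a peak in the UBR7KO libraries, against 24 and 30 in the parental libraries. Over all genes the shares were 69.3% and 82.1% in UBR7KO, against 54.5% and 79.7% in parental libraries. Over genes at or above the lowest mean CPM of a Polycomb gene they were 76.0% and 88.0% in UBR7KO, against 60.6% and 85.9% in parental libraries. The Polycomb shares were 79.4% and 85.3% in UBR7KO, against 70.6% and 88.2% in parental libraries. In UBR7KO replicate 2 the Polycomb share lay below that of genes at or above this lowest mean. That mean, of CBX7, is only a lower bound, and the genes were not matched on expression. In all 4 libraries 22 Polycomb starts had a peak (64.7%, against 51.9% of all genes), among them EZH2, SUZ12, EZH1 and EED. AEBP2, PCGF2, CBX8 and BCOR had none in any library at the start given in the RNA table. When RefSeq starts were added, PCGF2 was the 1 gene with no peak in any library, with 31 and 32 genes in UBR7KO, against 26 and 33 in parental libraries. No Polycomb start had a peak in both libraries of one genotype and in neither of the other, a pattern seen for 110 genes with peaks in UBR7KO only and 9 with peaks in parental cells only.

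The authors' −log10 q, a measure of confidence in a peak, ran from 0.63 to 7.97 at these starts. Over all peaks its medians were 1.22 and 1.87 in the UBR7KO lists, against 1.07 and 1.33 in the parental lists. EZH2 had 2.37 and 7.78 in the UBR7KO libraries, against 2.83 and 1.01 in the parental libraries. SUZ12 had 1.23 and 1.53 in UBR7KO, against 0.97 and 1.73 in parental libraries, and EZH1 had 1.32 and 0.91 in UBR7KO, against 1.55 and 3.42 in parental libraries. PHF1 had 4.49 and 7.97 in UBR7KO, against 1.52 and 0.72 in parental libraries, the 7.97 being the highest at any Polycomb start. These values depend on the depth of each library, so they rank peaks within 1 list and show no change between lists. In the descriptions, both UBR7KO ATAC libraries bear the code of the library labelled UBR7KO2, whose UBR7 RNA was not reduced, so the ATAC cells may be of that line, which the labels do not state.

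GFP-UBR7 peaks, 5895 in the authors' list from 1 immunoprecipitation, lay within 1000 bp of the start of 14 of the 34 genes (41.2%), against 24.4% of all genes in the table and 27.1% of genes at or above the lowest mean CPM of a Polycomb gene. With no replicate, this share has no test, and the genes it stands beside were not matched on expression. Every class had at least 1: EZH2 and EED of the PRC2 core, MTF2 and PHF1 of the accessory genes, PCGF1, PCGF3 and PCGF6, the canonical genes CBX2, CBX6 and SCMH1, the variant genes YAF2 and E2F6, and ASXL1 and BAP1 of PR-DUB. The EZH2 peak had the highest score of the 14 by the authors' scale (165), rank 283 of the list, and was the widest at 914 bp (chr7:148581162-148582075, GRCh37). MTF2 followed with a score of 159 (rank 324, 433 bp) and ASXL1 with 114 (rank 758, 432 bp). The other 11 ranked from 1747 (CBX2) to 5304 (BAP1). SUZ12, EZH1, RING1, RNF2, BMI1 and BCOR had no listed peak there, so the 2 genes called between pairs were split, EZH2 with a UBR7 peak and SUZ12 without.

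All 14 of these UBR7 peaks overlapped an ATAC peak of at least 1 library, and 5 overlapped one in all 4 libraries (EZH2, YAF2, PCGF1, E2F6 and EED), while 44.9% of the 2993 UBR7 peaks at any gene start did. In the authors' grouping of gene starts by ATAC signal, 39 starts of 32 Polycomb genes fell 6, 8, 9 and 16 into clusters 1 to 4. All 13176 starts were spread as 19.6%, 18.1%, 15.6% and 46.7% over the same clusters, and the Polycomb starts as 15.4%, 20.5%, 23.1% and 41.0%. Both EZH2 starts were in cluster 3, SUZ12 in cluster 1, EZH1 in cluster 2 and EED in cluster 4, and what each cluster stands for is not given in the sources used here.

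**Figure D4:**
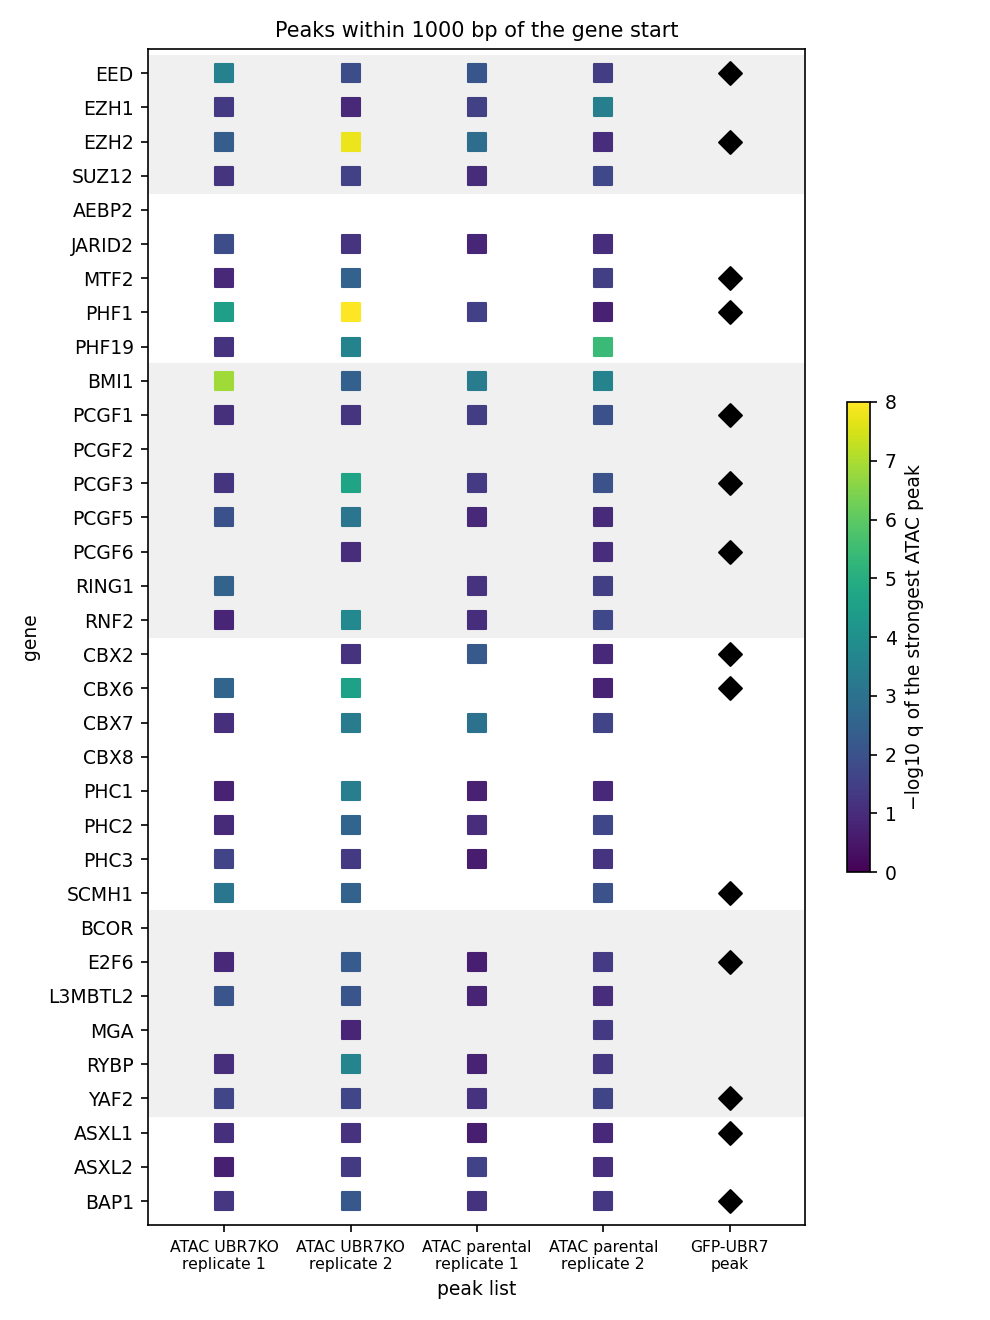
Peaks within 1000 bp of each Polycomb gene start, with ATAC peaks as squares coloured by the authors' −log10 q, UBR7KO libraries left of parental ones, and GFP-UBR7 peaks as diamonds. Of 34 rows, 22 have a square in all 4 ATAC columns and 14 have a diamond, and 4 rows (AEBP2, PCGF2, CBX8 and BCOR) are empty.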

How the data were processed

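RNA, ATAC-seq and GFP ChIP-seq files were used for 12 of 18 samples, and the 6 CUT&RUN samples were not analysed here. The deposited RNA table gives CPM per library, and the log2 fold changes and p-values in it are the authors', from edgeR per the file headers. Per the submitters' processing notes, the tools included MACS2, Bowtie2 2.3.1, HTSeq 0.6.1 and TopHat2 2.1.0 and the builds hg19 and hg38, without saying which made which file. The coordinates match GRCh37. The deposited ATAC lists give −log10 q per peak, and the deposited GFP-UBR7 list gives a score without a stated scale. Whole reads were recovered for 100.0% of values (tolerance 0.0001).

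Genes above 1 CPM in at least 3 of 6 libraries (2 of 4 for the dated pairs) were fitted with limma 3.58.1 (intensity trend, robust) on log2(CPM + 1) in R 4.3.3, with Benjamini-Hochberg adjustment over all tested genes. Alternatives used edgeR 4.0.16 and DESeq2 1.42.0 on the recovered reads. Peaks were matched to gene starts by an overlap of 1 bp with 1000 bp on each side. Python 3.11.15, scipy 1.17.1 and matplotlib 3.10.9 were used for counts and figures. The fits were tested on simulated counts with a fixed spread and no differences between pairs. That test therefore does not show how the fits behave with the pair differences of these libraries. Deviations from group means correlated at 0.758, 0.736 and 0.633 within the pairs and at −0.443 to −0.251 otherwise. Such deviations cancel within a group, so the negative values follow in part from the positive ones. The pairs, from the date codes in the labels and a shared prefix, were used as a block in an alternative. Every Polycomb gene was given by class, and other lists by called genes (up to 5) or else the most expressed. The members and lists were chosen with earlier results of these data known. The EZH2 over EZH1 and EZH2 over SUZ12 ratios were added later. Counting intervals cover counting error only.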

Additional observations from a re-analysis of the deposited data

Results flagged for a closer look

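The change of EZH2 RNA in the undated pair, between the library labelled UBR7KO2 and parental replicate 3, exceeded its change in the UBR7KO1 pairs by 1.04 in log2 units (SE 0.20, limma adjusted p = 0.00212). EZH2 was higher in the library labelled UBR7KO2 and lower in both UBR7KO1 libraries than in their parental partners. The same difference was −0.98 for SUZ12 (SE 0.20, limma adjusted p = 0.00388), which was lower in the library labelled UBR7KO2 and higher in both UBR7KO1 libraries. For UBR7 itself it was 1.16 (1.155, SE 0.22, limma adjusted p = 0.00176), with UBR7 lower in both UBR7KO1 libraries and not in the library labelled UBR7KO2. Each difference rests on 1 library of the second line, its p takes the spread from the dated pairs alone, and line and preparation cannot be told apart.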

How the results depend on the processing

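The 6 libraries set what could be detected: 1 library of the second line, 2 dates and 1 immunoprecipitation. No Polycomb gene was called in the 6-library comparison or on the dates under TMM or RLE scaling, a pseudocount of 0.1, no filter, either count tool, the replicate block or with any library left out. DESeq2 called 7 genes over 6 libraries and 22 on the dates. With the date pair as a replicate block, 496 genes were called on the dates by limma and 623 by the edgeR quasi-likelihood test, chosen after seeing the data, against 0 without the block. For EZH1 over 6 libraries the block gave an adjusted p of 0.802. Leaving out 1 replicate gave 3 to 15 called genes on the dates, the 15 without parental replicate 1.

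Between pairs, DESeq2 called 223 genes and 1 Polycomb gene, EZH2, against 689 and 2. The EZH2 difference lay between 1.04 and 1.11 and that of SUZ12 between −0.99 and −0.93 over the alternatives, and EED turned to 0.004 with TMM, 0.009 with RLE, 0.006 with edgeR and 0.012 with DESeq2. In the undated pair 1793 genes passed 1.5-fold with a pseudocount of 0.1, and 300 genes and 0 Polycomb genes passed 2-fold. With 1 replicate left out, the 6-library log2 change ran from −0.144 to 0.097 for EED, from −0.171 (without parental replicate 3) to 0.382 for EZH2 and from −0.443 to 0.271 for SUZ12, so the sign turned for each. It ran from −0.584 to −0.051 (without the library labelled UBR7KO2) for EZH1 and from 0.155 (without parental replicate 1) to 0.290 for PCGF3. In the dated pairs it ran from −0.211 to 0.199 for EED, from −0.508 to 0.029 for EZH2 and from −0.043 to 0.425 for SUZ12. At a −log10 q of at least 5, ATAC peaks lay at 1 and 2 Polycomb starts in UBR7KO and 0 and 1 in parental libraries, where all genes had 1.28% and 11.6% in UBR7KO and 1.25% and 4.0% in parental libraries. The GFP-UBR7 peaks above the median score lay at 8 starts (23.5%), against 14.7% of all genes. Within 500 bp in place of 1000 bp, GFP-UBR7 peaks lay at 10 Polycomb starts (29.4%, against 21.1% of all genes). Within 5000 bp they lay at 16 (47.1%, against 28.0% of all genes). The cause of these moves was not tested.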
